A study of Mus musculus with 12 samples.

Results

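In Ankrd31 knockout testis, 9688 listed autosomal meiotic recombination hotspots were missing from the wild type list. Of these, 645 were centred at the end of a gene not annotated as protein-coding. Such genes, of any other biotype, are called noncoding here. Members were selected on the lists' own calls and on annotation. Each was an interval of the knockout list on chromosomes 1 to 19 without a 1 bp overlap with the wild type list. Its centre lay over 1 kb from every protein-coding gene end and within 1 kb of an end of a noncoding gene in the RefSeq annotation of mouse build GRCm38. The knockout list held 22034 hotspots, 20448 of them on autosomes, and the wild type list held 13480. The other autosomal hotspots found in the knockout list alone were 4550 at protein-coding gene ends, 2361 inside genes and 2132 between genes. The 645 members lay at 645 different genes, and lncRNA genes held 421 of them. The rest lay at 133 pseudogenes, 24 transcribed pseudogenes, 23 snRNA, 22 tRNA, 11 miRNA, 4 snoRNA and 4 miscellaneous RNA genes, the telomerase RNA gene Terc, and 2 entries of the immunoglobulin heavy chain locus.

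DMC1 single-stranded DNA sequencing was run on whole testis of adult male mice. It recovers DNA bound by DMC1, the meiotic recombinase that loads on resected ends of programmed double-strand breaks. The knockout mice carried the Ankrd31 tm1Atot allele, and the labels used here do not name their genetic background. The wild type mice were of strain C57BL/6JCrl. Each genotype had 2 DMC1 samples but a single deposited list, and the sources used here do not state whether samples were pooled. There was therefore no replicate check, and no p-value was computed. The series also holds H3K4me3 and input libraries of both genotypes from mice of 13 days, which were not analysed here. Since whole testis was used, a change in the number of cells at the DMC1 stage and a change in signal per cell cannot be told apart, and neither can the allele and any strain difference.

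In mice, the zinc finger protein PRDM9 sets most break sites by placing H3K4me3 at its own DNA motif, usually away from promoters. Where PRDM9 is missing, breaks fall largely at other H3K4me3 sites, above all promoters. ANKRD31 is a partner of the break-promoting protein REC114. Many lncRNA genes start at promoters built like those of protein-coding genes, often rich in CpG, whereas tRNA and some small RNA genes are transcribed by RNA polymerase III.

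The promoters of the 4 strongest members centred at a lncRNA start, among genes with a strand in the tables used here, show how such sequences differ. They are RefSeq sequences of GRCm38.p6, read 5′ to 3′ along the gene from 250 bases before the start to 50 after it. Capitals mark matches on either strand to any of 8 motifs. GGGCGG is bound by Sp and KLF factors and CCGGAAG by ETS factors. GCATGCGC is part of the motif of the activator NRF1, and TGACGTCA is the site of CREB factors. CCAAT is bound by NF-Y, while TATAAA is the core of the TATA box. CAACGG and the related form with CAACTG are sites of MYB factors, which include a regulator of meiotic genes. Adjacent sites may overlap. Gm31125 (chr4:106840112-106840411, minus strand) and 1700096K18Rik (chr5:25529768-25530067, plus strand) each had a GC content of 74.0%, with 32 CG dinucleotides at Gm31125 and 33 at 1700096K18Rik. Gm31812 (chr1:52113841-52114140, minus strand) had 52.7% GC, 18 CG dinucleotides and none of the motifs. Chaserr (chr7:73558346-73558645, minus strand) had 72.3% GC and 30 CG dinucleotides.
Gm31125: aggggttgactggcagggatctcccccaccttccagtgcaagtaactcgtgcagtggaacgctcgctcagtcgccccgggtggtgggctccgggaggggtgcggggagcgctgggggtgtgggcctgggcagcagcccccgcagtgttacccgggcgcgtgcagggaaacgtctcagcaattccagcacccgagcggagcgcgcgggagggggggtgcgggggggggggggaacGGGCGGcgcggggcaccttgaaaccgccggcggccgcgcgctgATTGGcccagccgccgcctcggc
Gm31812: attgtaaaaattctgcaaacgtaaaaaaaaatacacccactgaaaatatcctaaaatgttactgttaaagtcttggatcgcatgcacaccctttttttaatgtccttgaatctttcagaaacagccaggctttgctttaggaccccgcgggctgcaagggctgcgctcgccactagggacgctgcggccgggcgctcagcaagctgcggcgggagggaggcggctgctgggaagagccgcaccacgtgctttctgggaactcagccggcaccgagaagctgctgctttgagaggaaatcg
1700096K18Rik: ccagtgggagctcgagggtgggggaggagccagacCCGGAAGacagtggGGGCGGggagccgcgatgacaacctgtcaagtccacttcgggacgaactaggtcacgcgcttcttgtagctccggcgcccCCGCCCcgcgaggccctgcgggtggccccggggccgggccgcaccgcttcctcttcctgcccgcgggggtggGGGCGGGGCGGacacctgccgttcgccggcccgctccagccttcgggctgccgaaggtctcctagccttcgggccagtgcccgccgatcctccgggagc
Chaserr: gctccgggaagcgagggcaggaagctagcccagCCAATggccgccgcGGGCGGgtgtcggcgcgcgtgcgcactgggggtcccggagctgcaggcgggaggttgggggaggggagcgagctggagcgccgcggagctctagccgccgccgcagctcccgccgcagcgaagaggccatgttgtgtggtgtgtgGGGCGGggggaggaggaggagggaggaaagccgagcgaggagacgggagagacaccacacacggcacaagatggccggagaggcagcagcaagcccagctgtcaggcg

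A noncoding gene end was a more common location among hotspots found in the knockout list alone than among those found in both lists. Of the 5138 knockout-only autosomal hotspots over 1 kb from protein-coding ends, 645 or 12.6% lay at a noncoding end (95% exact Clopper-Pearson interval 11.7 to 13.5). The share was 3.44% (3.10 to 3.81) of 10456 hotspots shared by both lists and 2.97% (2.25 to 3.85) of 1851 found in the wild type list alone. The windows around noncoding ends covered 78.0 Mb, or 3.37%, of the 2315 Mb of autosomes between the first and last hotspots outside protein-coding ends. The shares of shared and wild-type-only hotspots thus lay near the share of sequence covered, and the knockout-only share lay above it. Seen from the knockout list, 64.2% (61.1 to 67.1) of the 1005 autosomal hotspots at noncoding ends were missing from the wild type list, against 47.4% of all autosomal hotspots of that list. The value was 93.7% at protein-coding ends, 29.2% inside genes and 32.8% between genes. All intervals here cover counting error only, hotspots are not replicates, and the rule itself used these calls, so the shares are descriptions.

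The biotypes gave a range of values in this respect, many of them with overlapping intervals. Some tRNA and snRNA members also lay within 1 kb of a lncRNA start. The knockout-only share of the knockout list was 88.0% at tRNA genes (22 of 25 hotspots, 68.8 to 97.5) and 76.7% at snRNA genes (23 of 30, 57.7 to 90.1). At transcribed pseudogenes it was 75.0% (24 of 32, 56.6 to 88.5), at lncRNA genes 65.5% (421 of 643, 61.7 to 69.1) and at pseudogenes 60.2% (133 of 221, 53.4 to 66.7). These intervals overlap one another, except that of tRNA genes with that of pseudogenes. The share was 52.4% at miRNA genes (11 of 21) and 25.0% at snoRNA genes (4 of 16, 7.27 to 52.4). The intervals at miRNA genes (29.8 to 74.3) and snoRNA genes both include the 47.4% of all autosomal hotspots. Counted per gene, over genes with an end more than 1 kb from protein-coding ends, a knockout-only hotspot stood at 8.41% of 345 tRNA genes (5.70 to 11.8), against 0.870% with a shared hotspot. In this count 1 hotspot can score several neighbouring genes, also genes other than its nearest. It gave 29 tRNA genes beside 22 tRNA members, 14 snoRNA genes beside 4 snoRNA members, and 707 genes in all beside 645 members. The intervals treat such genes as separate counts. For 427 transcribed pseudogenes the values were 5.62% (3.63 to 8.25) against 1.87% (0.812 to 3.66), whose intervals overlap slightly. They were 3.75% (3.42 to 4.10) against 1.86% (1.63 to 2.12) for 12190 lncRNA genes, and 2.66% against 0.775% for 903 snRNA genes. Pseudogenes had 1.56% against 1.02%, and miRNA genes had 1.40% (0.767 to 2.34) against 0.900% (0.412 to 1.70), where the intervals overlap. snoRNA genes, most of which sit in introns of host genes, had 1.15% with a knockout-only and 1.07% with a shared hotspot. Immunoglobulin and T cell receptor V segments had 0.254% (1 gene, 0.00643 to 1.41) against 1.52% (0.561 to 3.28) of 394, the one biotype named here with fewer genes at knockout-only than at shared hotspots.

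**Figure D1:**
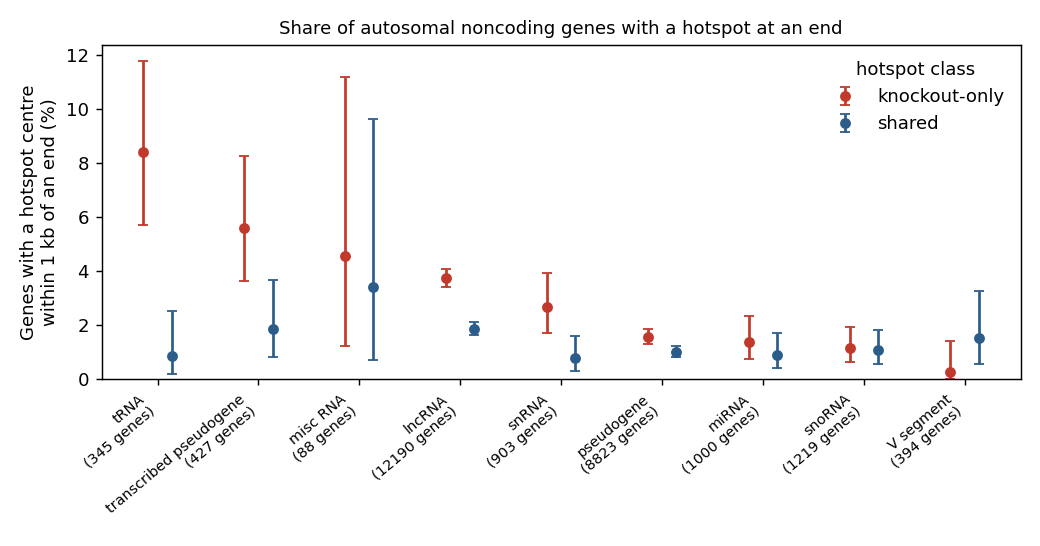
Percent of the noncoding genes of each biotype (y axis) with a knockout-only hotspot (red) or a shared hotspot (blue) centred within 1 kb of an end, with 95% exact binomial bars for counting error. The red point stands furthest above the blue one at tRNA genes, 8.41% against 0.870%, and the pair lie close together at snoRNA genes.

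lncRNA members sat mostly at the start of the gene. Of 324 lncRNA members whose gene had a strand in the tables used here, 276 or 85.2% (80.8 to 88.9) were nearest to the start and 48 to the 3′ end. Of 182 shared hotspots at lncRNA ends, 52.7% (45.2 to 60.2) were nearest to the start. The remaining 97 lncRNA members, 22 of them on chromosome 18, had no strand there. At lncRNA starts, 74.2% of 372 knockout-list hotspots were knockout-only, a value between the 93.7% of protein-coding ends and the 35.8% (48 of 134) of lncRNA 3′ ends. Among the starts themselves, 3.71% of 8055 carried a knockout-only hotspot (3.31 to 4.15) and 1.24% a shared one, whereas at 8848 lncRNA 3′ ends 0.735% carried a knockout-only and 1.01% a shared one. The hotspot lists carry no strand, so a start was matched by distance alone. An alternative start of a protein-coding gene, inside the gene, lay within 1 kb of 57 of the 276 start members and of 73 of all 645. The list of such starts has gaps and holds none on chromosome 18, so these counts are minima. The part of these starts in those hotspots was not tested.

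**Figure D2:**
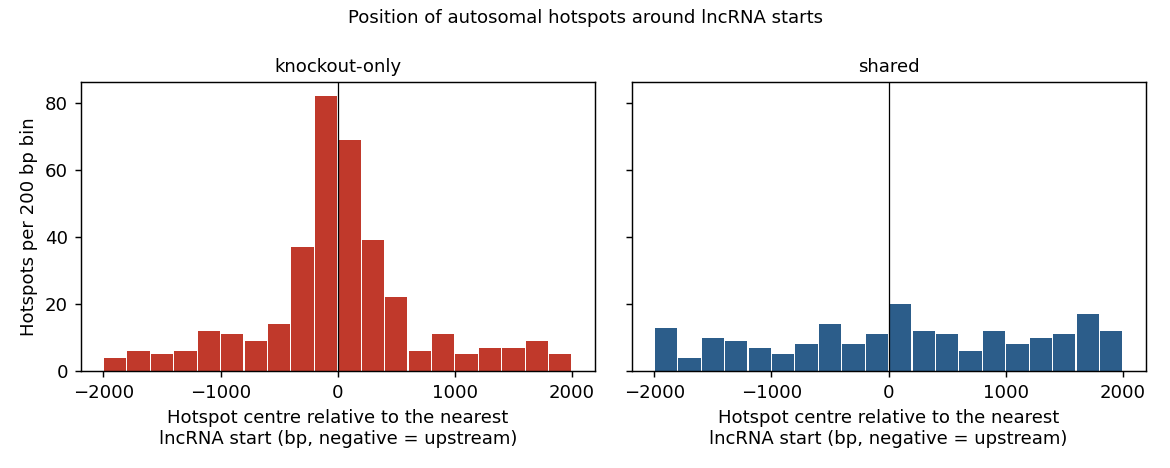
Number of knockout-only (left) and shared (right) autosomal hotspots per 200 bp, by distance of the hotspot centre from the nearest lncRNA start in bp, negative values being upstream. Knockout-only hotspots pile up at the start, with 82 in the 200 bp upstream and 69 in the 200 bp downstream, while shared hotspots number 11 and 20 in the same bins.

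Members stood more often at CpG-rich lncRNA starts than at other lncRNA starts. A start was called CpG-rich where its 300 base promoter had a CpG observed over expected ratio above 0.6 and GC above 50%. Of 448 CpG-rich lncRNA starts, 126 or 28.1% (24.0 to 32.5) had a knockout-only hotspot, 6 or 1.34% a shared one and none a wild-type-only one, for which a count of 0 allows up to 0.820%. Of 7607 other lncRNA starts, 173 or 2.27% (1.95 to 2.63) had a knockout-only hotspot and 94 or 1.24% a shared one. Over the 5 classes of CpG ratio, from at most 0.2 to above 0.8, the knockout-only percentages were 0.618, 2.37, 6.34, 17.0 and 34.5, each above the class before. Those of shared hotspots were 1.38, 1.22, 0.892, 1.06 and 1.28 and showed no such order. At protein-coding starts, 42.4% of 7734 CpG-rich ones and 8.74% of 8722 others carried a knockout-only hotspot. Both classes of lncRNA start stood below these values, but the counts are not alike. Every hotspot within 1 kb counted at protein-coding starts. At lncRNA starts only hotspots over 1 kb from protein-coding ends counted, which can only lower the lncRNA values.

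**Figure D3:**
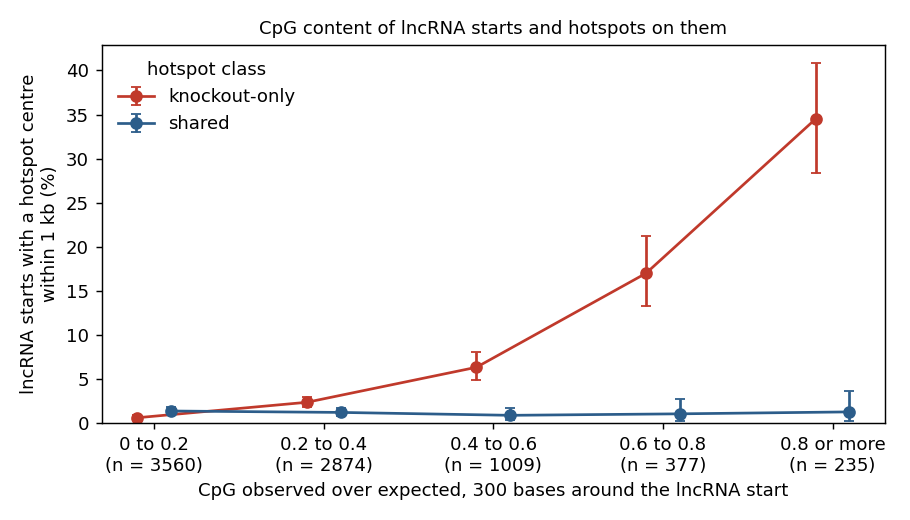
Percent of lncRNA starts with a knockout-only (red) or shared (blue) hotspot within 1 kb, by class of CpG observed over expected ratio of the promoter, with 95% exact binomial bars. The red points climb to 34.5% in the highest class and the blue points stay between 0.892% and 1.38%.

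Nearness to a protein-coding gene did not order the CpG-rich starts in one direction. Hotspots within 1 kb of a protein-coding end were left out, which can lower the value of the class 1 to 5 kb away. That class is therefore not fully comparable with the others. A knockout-only hotspot stood at 25.0% of CpG-rich lncRNA starts 1 to 5 kb from a protein-coding end (42 of 168), at 32.5% of those 5 to 50 kb away (66 of 203), and at 23.4% of those over 50 kb away (18 of 77, 14.5 to 34.4). Inside a protein-coding gene the value was 25.7% of 230, and outside 30.7% of 218. Genes with model symbols (Gm or LOC numbers), which made up 280 of the 421 lncRNA members, had a knockout-only hotspot at 2.75% of 6680 starts, against 8.36% of 1375 starts of genes with other symbols. Within CpG-rich starts the value was 25.1% (20.2 to 30.5) for model symbols and 33.5% (26.3 to 41.4) for other symbols.

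The promoters of member lncRNAs were intermediate in base composition between those of other lncRNA starts and of protein-coding genes at knockout-only hotspots. A gene can have several listed starts here, whereas the counts of starts above took 1 per gene. The set of all lncRNA starts held those over 1 kb from protein-coding ends. Member starts were listed lncRNA starts within 1 kb of a member centre, and the rule limits the centre, not the start. Some belong to members nearest to an end of another gene, such as a tRNA or snRNA gene. For member promoters the median GC was 55.3% over 288 starts, against 46.3% at 95 lncRNA starts with a shared hotspot. It was 47.7% at all 9854 lncRNA starts over 1 kb from protein-coding ends, and 64.7% at 5118 protein-coding starts with a knockout-only hotspot. CpG-rich promoters made up 43.4% (37.6 to 49.3) of member promoters, against 6.32% at lncRNA starts with a shared hotspot, 5.24% at all such lncRNA starts and 82.3% at protein-coding starts with a knockout-only hotspot. GGGCGG was present in 48.6% of the member promoters, in 5.26% of those at shared hotspots, in 10.8% of all such lncRNA promoters, in 75.9% of protein-coding promoters with a knockout-only hotspot and in 47.0% of all 20084 protein-coding promoters. CCGGAAG was present in 9.38% of member promoters against 2.89% of all such lncRNA promoters, and CAACGG in 9.38% against 4.16%. GCATGCGC was rarer, at 3.47% of member promoters against 0.771%, as was the CREB motif TGACGTCA, at 2.78% against 0.761%. The remaining 3 motifs were no more frequent at members: the form CAACTG with 10.4% against 16.4%, the NF-Y motif CCAAT with 32.6% against 36.2%, and the TATA box with 12.5% against 16.6%. The motifs with a CG in them and the GC content move together, and whether any motif goes with hotspots beyond base composition was not tested.

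Members centred at a CpG-rich start were closer to it and stronger than those at other starts. Strength is the authors' count of reads in the hotspot minus a background estimate. Its median was 98 (quartiles 67 and 141) for 125 members at CpG-rich starts and 68 (50 and 97) for 163 at other lncRNA starts. These are the 288 members within 1 kb of a listed lncRNA start, some of them nearest to an end of another gene. The centre lay within 250 bp of the start in 74.4% of the CpG-rich group and in 47.9% of the other.

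Members were weak hotspots by the standard of the list. Their strength ran from 21 to 802, with a median of 71 and quartiles of 52 and 110. The median was 90 at knockout-only hotspots of protein-coding ends, 64 at those inside genes, 61 at those between genes and 151 at hotspots shared with the wild type. Shared hotspots at noncoding ends had a median of 149, close to that of all shared ones. Together the members summed to 62493, or 1.58% of all strength in the knockout list, over 1.11 Mb of intervals with a mean strength of 96.9. They placed 36 hotspots, or 5.58%, among the strongest 20% of the list. A member of median depth had 82 reads, for which an exact Poisson interval is 65.2 to 101.8 reads. By strength in the list, 78 members reached the wild type median of 152 and 579 reached its 5th percentile of 43, on the scale of each list without adjustment between them. The nearest wild type hotspot was far away for most, at a median of 57898 bp between centres, with 9 members within 5 kb.

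The biotypes overlapped widely in strength. The median was 98 for snRNA, 81 for miscellaneous RNA, 77 for lncRNA, 76.5 for tRNA, 67 for pseudogene, 66 for transcribed pseudogene, 61 for miRNA and 52.5 for snoRNA members. Within the lncRNAs it was 79.5 at starts and 62 at 3′ ends, and 69 for model symbols against 85 for other symbols.

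**Figure D4:**
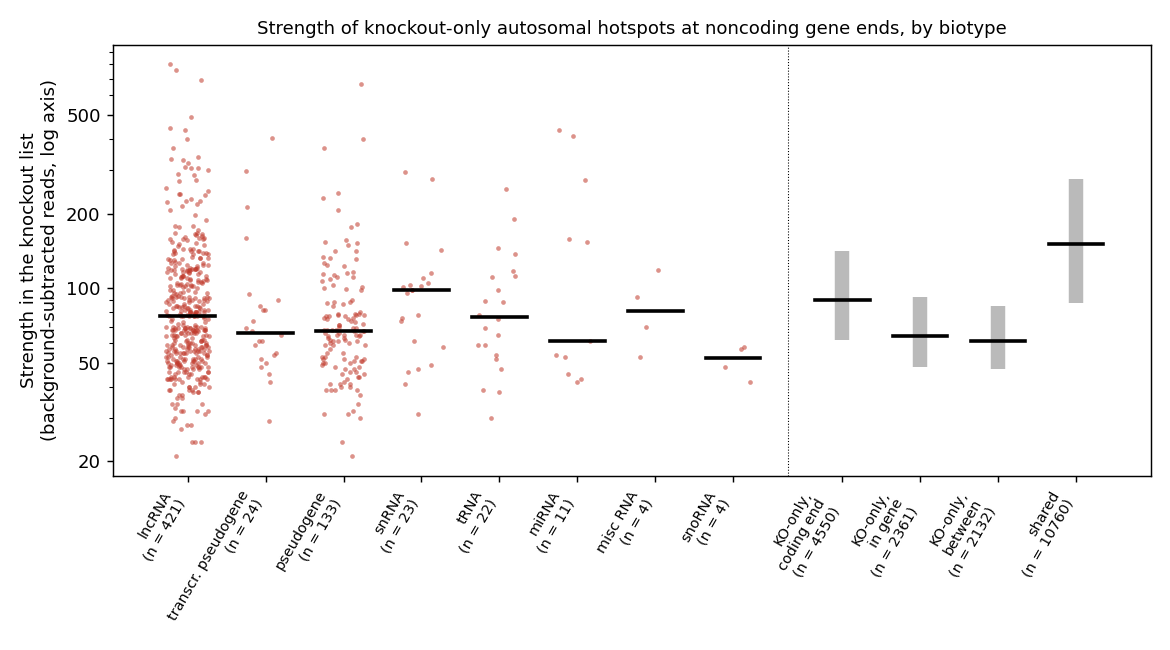
Strength in background-subtracted reads on a log axis, 1 red point per member by biotype of its gene, with a black bar at the median; grey boxes span the quartiles of other hotspots of the knockout list. Member medians run from 52.5 for snoRNA to 98 for snRNA, all under the 151 of shared hotspots.

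The strongest member, of strength 802 and 2880 bp wide, lay on chromosome 4 from 106838666 to 106841546, its centre 55 bp inside the start of the lncRNA Gm31125. It had 860 reads, with a Poisson interval of 803.5 to 919.5, and ranked 479 in the whole knockout list. Gm31812 on chromosome 1 followed with 763 and a narrow interval of 1556 bp, and 1700096K18Rik on chromosome 5 with 693 and 2116 bp. All 3 were centred within 60 bp of the start, and the nearest wild type hotspot centre was 119642 bp away at Gm31125, 95769 bp at Gm31812 and 57600 bp at 1700096K18Rik. Chaserr, a lncRNA beside Chd2 that lowers the expression of that chromatin remodeller, had a hotspot of strength 435 on chromosome 7, centred 31 bp upstream of its start. Gm26901 had 369 and was centred 1 bp from its start, while A630072M18Rik, with 402, was 469 bp from its own start and 364 bp from an alternative start of a protein-coding gene. The other lncRNAs among the 15 strongest were Gm35248 with 493, Gm8273 with 442 and LOC115490388 with 338. The strongest pseudogene members were Gm13422 with 666, Nfyc-ps with 402 and Gm11889 with 368. Gm11889 was 977176 bp from any protein-coding end, and the strongest transcribed pseudogenes were Pisd-ps2 with 403, Gm6485 with 298 and Bambi-ps1 with 213. Pseudogenes resemble their parent genes in sequence, and the sources used here do not state how the authors treated reads with several matches, so these positions are uncertain.

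Several well-known noncoding RNAs were members. Malat1, an abundant RNA of nuclear speckles, had a hotspot of strength 319 centred 892 bp upstream of its start. Its neighbour Neat1, the scaffold of paraspeckles, had 108 at 464 bp from an end. Rn7sk, the 7SK RNA that holds the elongation factor P-TEFb inactive, had 295. Terc, the template RNA of telomerase, had 65, Crnde had 67, and Oip5os1, a conserved RNA that directs the decay of miR-7, had 43 at 6 bp from its start. These were 6 of the 17 genes in a list of nuclear or widely expressed noncoding RNAs with an end free of protein-coding genes, or 35.3% (14.2 to 61.7), beside 2.74% of all noncoding genes. The list was drawn up with earlier results known. Counted per start, lncRNA genes without Gm or LOC symbols had 8.36%, and their CpG-rich starts had 33.5%. None of the 17 had a shared hotspot, a count that allows up to 19.5% and so does not separate them from the 1.42% of all noncoding genes.

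Hosts of small RNAs were also among them, with 8 of 32, or 25.0% (11.5 to 43.4), beside 3.75% of all lncRNA genes. Counted per start, lncRNA genes without Gm or LOC symbols had 8.36%, and their CpG-rich starts had 33.5% (26.3 to 41.4). The starts at Dancr, Snhg8, Snhg5 and Snhg15 were CpG-rich, and those at Mir22hg and Snhg3 were not. Whether hosts differ from other starts of like CpG content was not tested. None of the 32 had a shared hotspot, which allows up to 10.9% and includes the 1.86% of lncRNA genes. Their strengths were 126 at Dancr, 116 at Snhg8, 114 at Snhg5, 112 at Mir22hg, 108 at Epb41l4aos, 98 at Snhg15, 59 at Snhg3 and 42 at Snhg4. The Snhg genes carry snoRNAs in their introns, and Mir22hg carries miR-22. All 8 were centred within 251 bp of the gene end. No member stood at the 12 genes of a list of imprinted noncoding genes (a count of 0 allows up to 26.5%) or at the 8 of a list of noncoding genes in the Hox clusters (up to 36.9%). Neither list is complete. Zim2, an imprinted gene of the Peg3 domain that the annotation lists as lncRNA, had a member of strength 106 centred 388 bp upstream of its start, and LOC115490409, a lncRNA overlapping Hoxa3, had one of 66. Both are named after their values were seen. Of 210 genes with opposite-strand or antisense names, 10 had a member, or 4.76% (2.31 to 8.58), led by Rab10os with 290, Zfp652os with 163 and Zbtb11os1 with 159, and 2 had a shared hotspot. That interval includes the 3.75% of all lncRNA genes.

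Among miRNA genes, Mir1893 had a hotspot of strength 434, Mirlet7i one of 410 and Mir5620 one of 273. The remaining 8 ranged from 42 to 158. The member at Mir34b, with 154, was picked for mention after its value was seen, as miR-34b belongs to a family active in male germ cells. let-7i belongs to the let-7 family, which represses growth genes. The mature 5p products of Mirlet7i (chr10:122985698-122985719, minus strand) and Mir5620 (chr7:7298891-7298913, plus strand), from RefSeq on GRCm38.p6, identify these genes and differ in the seed, bases 2 to 8, shown in capitals.
let-7i-5p: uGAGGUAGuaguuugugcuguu
miR-5620-5p: aCGAGGCAggggcuuugacugug
The hotspot centre was 274 bp from the annotated end of Mirlet7i and 399 bp from that of Mir5620. The hotspot at Mir5620 lay inside a protein-coding gene, 344 bp from a listed alternative protein-coding start. A miRNA gene in the annotation is the hairpin and not the primary transcript, so these distances are not distances from a promoter.

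Members at tRNA and snRNA genes lay close to the gene. The centre was within 250 bp of the gene end at 17 of 22 tRNA and 20 of 23 snRNA members, against 342 of all 645, while 4 of 11 miRNA members and 3 of 4 snoRNA members were that close. The strongest tRNA members were n-TLtaa3 with 251, n-TYgta1 with 191 and n-TSgct5 with 145. After Rn7sk, the strongest snRNA members were Gm22513 with 276 and Gm23971 with 152. Some of these tRNA and snRNA members also lay near another listed start. The centre at n-TLtaa3 was 242 bp from a lncRNA start and that at Rn7sk 181 bp from one. A lncRNA start also lay within 1 kb at n-TQttg6, n-TAcgc8, n-TTagt9, n-TTcgt3 and Gm24497. At n-TRtcg5 the centre was 71 bp from a protein-coding start inside the gene. Distance alone cannot assign these hotspots to the small RNA gene. The 4 snoRNA members were weak, led by Gm24334 with 58, Gm22536 with 57 and LOC115488958 with 48. Of the miscellaneous RNAs, Gm4633 had 118, 4930404H24Rik 92 and 4930451G09Rik 70. The immunoglobulin entries were Igh with 52 and Ighv8-14 with 28.

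Some small RNA members came in clusters. On chromosome 11, between 87426286 and 87472684, 5 members lay within 100 kb of each other, at Rnu3b1 with 31, Rnu3b2 with 47, Rnu3b3 with 58, Rnu3b4 with 41 and Gm22068 with 61. The Rnu3b genes encode U3 RNA, which acts in ribosomal RNA processing and is listed as snRNA in the annotation. Further along chromosome 11, Rnu2-10, which encodes the spliceosomal U2 RNA, had 98 with Gm23971 (152), Gm24950 (143) and Gm26316 (46) nearby. In all, 82 members had another member within 100 kb. The copies in such families are nearly identical, so reads can be shared between copies, and the separate strengths are uncertain.

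Members were broader than shared hotspots of like strength, as were the other knockout-only hotspots. Width ran from 996 bp at Gm32635 to 3828 bp at the pseudogene Gm7115, with a median of 1656 bp (quartiles 1442 and 1920) and a mean of 1727.9 ± 399.4 bp (SD over hotspots). The median was 1742 bp at protein-coding ends, 1552 bp inside genes, 1502 bp between genes and 1568 bp at shared hotspots. Width grows with strength in these lists, so the groups were set side by side within 5 classes of strength. From the weakest class (16 to 57) to the strongest (224 to 7346), member medians were 1434, 1670, 1822, 1844 and 1986 bp. Those at protein-coding ends were 1464, 1695, 1812, 1878 and 1990 bp. Those of knockout-only hotspots inside or between genes were 1410, 1564, 1662, 1774 and 1798 bp, and those of shared hotspots 1396, 1498, 1530, 1570 and 1640 bp. All 3 knockout-only groups exceeded the shared hotspots in every class. Members lay within 34 bp of those at protein-coding ends and above those inside or between genes in each class. Intervals over 2500 bp made up 5.27% of members (34 of 645, 3.68 to 7.29), 4.77% at protein-coding ends, 2.56% of the other knockout-only hotspots and 1.26% of shared ones. Among the biotypes, the median width was 1915 bp for 4 miscellaneous RNA, 1894 bp for 22 tRNA and 1832 bp for 11 miRNA members. It was 1674 bp for lncRNA, 1670 bp for snRNA, 1628 bp for transcribed pseudogene, 1564 bp for pseudogene and 1509 bp for snoRNA members. The quartiles overlapped, at 1590 and 2021 bp for tRNA, 1464 and 1942 bp for lncRNA, and 1386 and 1750 bp for pseudogene members.

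**Figure D5:**
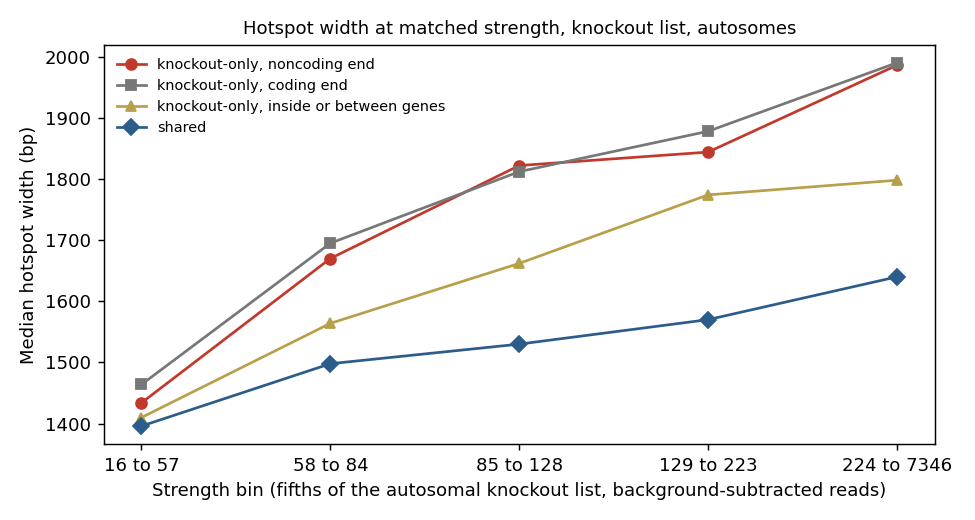
Median hotspot width in bp (y axis) in 5 classes of strength (x axis, background-subtracted reads) for members, other knockout-only hotspots and shared hotspots. The lines of members and of knockout-only hotspots at protein-coding ends nearly coincide, and all knockout-only lines run above that of shared hotspots, with 1986 bp for members and 1990 bp at protein-coding ends against 1640 bp in the strongest class.

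Members were found on every autosome. Their share of the knockout-only hotspots outside protein-coding ends was 19.2% (42 of 219, 14.2 to 25.0) on chromosome 17 and 9.06% (28 of 309, 6.11 to 12.8) on chromosome 3, the highest and lowest. Chromosome 11 held most members, 65 (15.4%), and chromosome 10 held 56 (11.2%). These chromosomes also had the most knockout-only hotspots, 865 on chromosome 11 and 782 on chromosome 10. The median strength of members was 51 on chromosome 11 and 54.5 on chromosome 10, where the list also reached lower. The weakest hotspot of the knockout list had a strength of 16 to 20 on chromosomes 1, 10, 11 and 12. It was 28 to 39 on the other autosomes. Chromosome 1 held 35 members with a median strength of 80, and chromosome 12 held 34 with a median of 93. The part of this lower limit in the higher counts on chromosomes 10 and 11 was not tested.

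In the genome, 192 members lay inside a protein-coding gene and 453 outside. The median distance to the nearest protein-coding end was 19708 bp, with 134 members within 5 kb and 9 over 1 Mb away. The distance to the noncoding end had a median of 230 bp, and 184 members were within 100 bp. At the limit of the rule, Gm42161, with strength 103 and a distance of 1000 bp, and Gm34572, with 68 and 995 bp, were just inside, while Gm26812, with 45 and 1007 bp, and Mir1956, with 199 and 1013 bp, were just outside. At the other limit, the member at Gm36753, with strength 67, was 1028 bp from a protein-coding end and that at 0610009E02Rik, with 127, was 1037 bp away. Hotspots left out were those at Gm10548, with 84 at 986 bp, and at Gm7467, with 144 at 977 bp.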

How the data were processed

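DMC1 single-stranded DNA sequencing of adult testis gave 1 deposited hotspot list per genotype, with 2 samples labelled for each. Tools named in the submitters' processing notes are BWA, Bowtie2, CASAVA and MACS2, with build mm10 and no versions or roles. In the deposited lists, per the file headers, the reads in a hotspot are a count, the background estimate is a score in scaled reads, the strength is a signal value, and a further column gives strength in percent of the list's total. Strength equalled reads minus background in 100% of hotspots. Hotspot reads summed to 4203380 in the knockout list and 4376692 in the wild type list. Total library depth was not used here. The knockout list was the source of every strength and width given.

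From these lists, overlaps of at least 1 bp, distances from hotspot centres to 26377 autosomal noncoding genes of RefSeq GRCm38, and promoter content were computed with Python 3.11.15, numpy 2.4.6, pandas 2.3.3 and scipy 1.17.1; 4 genes without coordinates were left out. Overlap and distance functions were tested on simulated data. Strand and promoters came from RefSeq tables of GRCm38.p6, which held a promoter for 9291 of 12408 autosomal lncRNA genes and none for chromosome 18. Members, gene lists and motifs were chosen with earlier results of these data known. Named genes are the 15 strongest members, the 3 strongest of each biotype, the most clustered members, members in the fixed gene lists (at most 10 for each) and those nearest the 1 kb limits. Promoters shown are those of the strongest members at starts with a strand in these tables, which leaves out 97 lncRNA members. Intervals are exact 95% Clopper-Pearson or Poisson intervals and cover counting error only. Other windows, strength limits, gene classes and CpG limits were tried.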

Additional observations from a re-analysis of the deposited data

How the results depend on the processing

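The number of members was 645 as reported, and it was 342 with a window of 250 bp, 178 at or above the knockout median strength, 78 at or above the wild type median, 233 without Gm and LOC symbols and 300 with start sites alone. Under the other 9 alternatives tried it ranged from 437 (lncRNA genes alone) to 837 (a window of 2 kb). The share of 12.6% became 9.81% at 500 bp, 6.66% at 250 bp, 16.3% at 2 kb, 18.7% among hotspots at or above the knockout median and 8.51% for lncRNA genes alone. A changed window or gene class changes the share by construction, and the cause of the rise with strength was not tested. The median strength stayed between 69.0 and 77.0, and the median width between 1620 and 1674 bp except 1881 bp for hotspots at or above the knockout median. The percentage of CpG-rich lncRNA starts with a knockout-only hotspot, 28.1%, was 36.4% with a ratio above 0.75 and GC above 55%, 23.7% with a ratio above 0.6 at any GC, and 25.0% without starts within 1 kb of a listed protein-coding start. These CpG alternatives, and the exclusion of alternative protein-coding starts that left 572 members, were chosen after seeing the data. No paired analysis was possible because each genotype had a single list without values per sample, and for the same reason no replicate could be left out. Hotspots just below the wild type calling limit count as absent from that list.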

Other observations

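On the X chromosome, outside the autosomal rule, the same distances gave 116 hotspots at noncoding gene ends among 859 found in the knockout list alone. The like autosomal count was 645 of 9688. Both totals include hotspots at protein-coding ends, unlike the 5138 behind the autosomal share of 12.6%.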
